A study of Arabidopsis thaliana with 8 samples.

Results

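ARR15 (AT1G74890) is a type-A response regulator gene of Arabidopsis thaliana whose transcription is induced by the plant hormone cytokinin. It was read here from the 1 probe set that the array's annotation table pairs with this gene alone, of 13356 genes with such a probe set. The gene was chosen because earlier results from these same arrays had shown it lower in ago1-27 than in Col-0. Its signals are therefore described with no p-value, and tests are given only for other genes.

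Cytokinin is perceived by membrane histidine kinases, which pass a phosphate through shuttle proteins (AHPs) to response regulators in the nucleus. Type-B regulators bind DNA and switch on target genes, among them the type-A regulators, which lack a DNA-binding domain and dampen the same pathway as a negative feedback. In the Arabidopsis shoot meristem ARR15 and its close relative ARR7 are known as points where the stem-cell factor WUSCHEL and the auxin response factor MONOPTEROS act on cytokinin signalling.

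Transcripts were measured in vegetative shoot apices of plants grown for 20 days in short days, on 8 Affymetrix ATH1 arrays, 2 for each of 4 genotypes. Col-0 was the wild-type accession. The line ago1-27 carries a partial loss-of-function allele of ARGONAUTE1 (AGO1), the protein through which most microRNAs act, and se-1 carries one of SERRATE (SE), a zinc-finger protein needed to process microRNA precursors. The fourth, se-1 p35S::MIR156, is se-1 with a transgene in which the 35S promoter of a plant virus, active in most cell types, drives a miR156 precursor. Since the transgene was studied only in se-1, its effect in wild-type plants was not measured. The labels do not say whether the 2 replicates of a genotype came from separate plants, so the spread between them may be technical.

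The deposited signals are linear and were scaled by the authors to a common mean on each array, with medians between 76.6 and 82.4. The small number of arrays limits the precision. On each array the highest of 27 probe sets for Bacillus sequences, which plants lack, was taken as the background level, between 14.2 and 34.1. Of 23 shoot meristem genes listed to check the tissue, 1 had a probe set paired with a single gene: the stem-cell peptide gene CLV3, which was within background on 7 of the 8 arrays. The meristem content of the apices could therefore not be checked with this list.

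ARR15 was well above background on every array. For replicates 1 and 2, its signals were 580 and 509 in Col-0, then 476 and 419 in se-1 p35S::MIR156, then 346 and 460 in se-1, and 211 and 181 in ago1-27. The lowest of these signals, on ago1-27 replicate 2, was 5.32 times the highest bacterial signal of its array, and the largest such ratio was 33.9. Both ago1-27 arrays lay below all 6 other arrays, as in 7.69% of all tested probe sets, and both Col-0 arrays lay above all 6 others. The share of probe sets with Col-0 above the rest was not counted. The gene was chosen for its difference between ago1-27 and Col-0, so both separations describe the choice. The arrays of se-1 and of se-1 p35S::MIR156 overlapped.

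**Figure D1:**
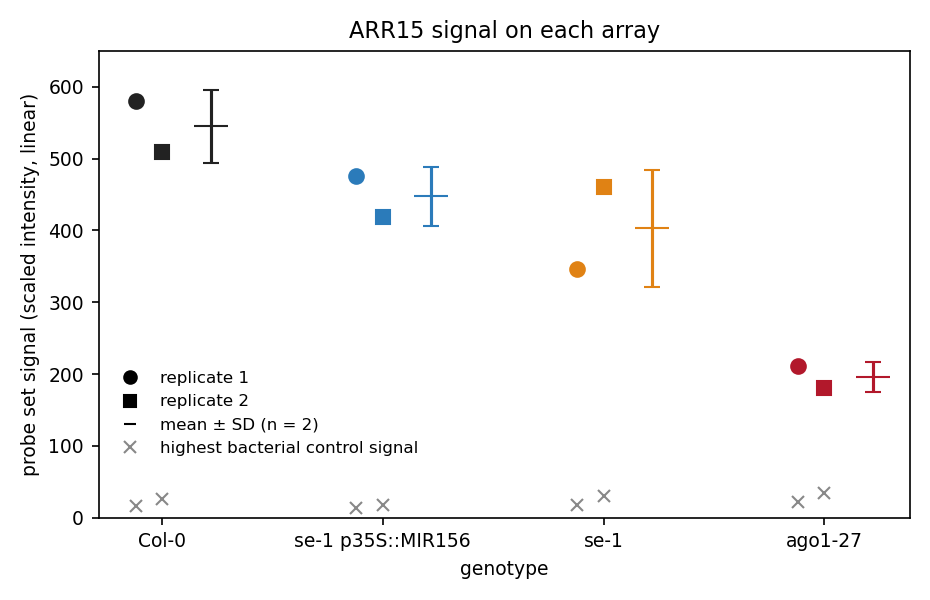
ARR15 signal (linear scaled intensity, vertical axis from 0) on each array of the 4 genotypes (horizontal axis), with the mean and SD of the 2 arrays beside the points and the highest bacterial control signal of each array as grey crosses. The 2 ago1-27 arrays, at 211 and 181, sit below the other 6, the lowest of which is at 346.

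From highest to lowest, the mean ARR15 signals were those of Col-0 (545 ± 50.6), se-1 p35S::MIR156 (447 ± 40.7), se-1 (403 ± 80.9) and ago1-27 (196 ± 21.3; SD, n = 2 for each). Relative to the Col-0 mean they stood at 82.1% in se-1 p35S::MIR156, 74.0% in se-1 and 36.0% in ago1-27. Of the neighbours in this order, se-1 p35S::MIR156 and se-1 did not differ beyond their spread: their log2 difference of 0.16 was smaller than the 0.40 between the 2 se-1 arrays. Col-0 and se-1 p35S::MIR156 did not overlap, and their log2 difference of -0.27 stands beside a gap of 0.18 on the log2 scale between the replicates of each. The step from se-1 down to ago1-27 was the widest. In bulk apices, fewer cells that express ARR15 and less ARR15 RNA per cell cannot be told apart.

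Against Col-0, ARR15 in ago1-27 differed by -1.40 on the log2 scale (SE of the fit 0.19), a 2.78-fold difference of the means. Paired array by array, the 4 possible Col-0 to ago1-27 ratios ran from 2.41 to 3.20. Counted from the most negative difference, ARR15 was number 50 of 15922 tested probe sets. This is the contrast for which the gene was chosen, so the values describe the choice. In this contrast 18.5% of all tested probe sets had both ago1-27 arrays below both Col-0 arrays, and 7.69% had both below all 6 other arrays.

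The separation of ago1-27 from the rest was also measured as a gap. The highest ago1-27 signal, 211, and the lowest signal of any other array, 346 on se-1 replicate 1, were 0.67 apart on the log2 scale. In all, 1225 tested probe sets had both ago1-27 arrays below the rest, and 72 of them, ARR15 included, had a gap at least this wide. Of the 72, 32 are paired with a single gene. The gene was chosen for its low ago1-27 signals, so the gap and this count also describe the choice.

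In se-1, ARR15 differed from Col-0 by -0.43 on the log2 scale (SE 0.19), a 1.35-fold difference of the means. The 4 array ratios of Col-0 to se-1 ran from 1.11 to 1.68. Both se-1 arrays lay below both Col-0 arrays, as 19.9% of all tested probe sets did in this contrast, and 15.6% of probe sets had a larger absolute difference than ARR15. The value rests on which se-1 array is taken, since it was -0.23 without se-1 replicate 1 and -0.63 without se-1 replicate 2. The 2 mutants of the microRNA pathway were both below Col-0, with values of -0.43 in se-1 and -1.40 in ago1-27. These comparisons share the Col-0 arrays, which also took part in the choice of the gene. The se-1 value is therefore not independent of that choice.

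Set directly against ago1-27, se-1 had 2.05 times its mean ARR15 signal (log2 difference 0.97, SE 0.19). The ago1-27 arrays are those for which the gene was chosen, so this value also describes the choice. The 4 array ratios ran from 1.64 to 2.54, and 21.7% of all tested probe sets had both se-1 arrays above both ago1-27 arrays. The log2 difference was 1.17 without se-1 replicate 1 and 0.77 without se-1 replicate 2.

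With the miR156 transgene ARR15 differed by less than the spread between the se-1 arrays. Within the se-1 background the log2 difference, transgenic minus se-1, was 0.16 (SE 0.19), and 55.0% of tested probe sets had a larger absolute difference. In 3 of the 4 array pairs the transgenic array was higher, with ratios from 0.91 to 1.38. Without se-1 replicate 1 the sign turned, to -0.042, and without se-1 replicate 2 the value was 0.35. Against Col-0 the transgenic line differed by -0.27 (SE 0.19, a 1.22-fold difference of the means), with both its arrays below both Col-0 arrays, as in 22.6% of all tested probe sets. Against ago1-27 it differed by 1.13 (SE 0.19, 2.28-fold), with array ratios from 1.98 to 2.63. In this contrast 21.9% of all tested probe sets had both transgenic arrays above both ago1-27 arrays. Here too the ago1-27 arrays are those for which the gene was chosen. The Col-0 arrays also took part in the choice, so the value against Col-0 is not independent of it.

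The spread of ARR15 between replicate arrays was ordinary for its brightness. Its residual SD over the 4 genotypes was 0.18 on the log2 scale, with 4 degrees of freedom, and the median over the 500 tested probe sets nearest in mean log2 signal was 0.17. Of those 500, 57.2% had a smaller SD.

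Signs of RNA quality were compared with ARR15 array by array. The signal ratio between the actin control probe sets for the 3' and the 5' end of the transcript, which grows when RNA is degraded or copied incompletely, was highest on the ago1-27 arrays, at 4.83 and 4.40. For replicates 1 and 2 respectively, Col-0 had ratios of 3.91 and 2.81, se-1 had 2.97 and 4.22, and the transgenic line had 3.26 and 3.48. Within Col-0, ago1-27 and se-1 the array with the higher ratio also had the higher ARR15 signal, and within se-1 p35S::MIR156 the array with the lower ratio did. The same ratio for GAPDH was 1.55 and 1.41 in ago1-27 and between 1.18 and 1.43 on the other 6 arrays. The part of RNA quality in the ARR15 difference was not tested.

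The rest of the cytokinin pathway could be followed only in part. The 10 lists of cytokinin genes hold 92 genes other than ARR15, covering receptors, phosphotransfer proteins, type-A, type-B and type-C regulators, enzymes, transporters, response factors and induced genes. Of these, 7 had a probe set paired with a single gene, and 3 were bright enough to be tested. The type-B regulator genes ARR18 and ARR19, the type-C regulator gene ARR22 and the glucosyltransferase gene UGT73C1, which can conjugate cytokinins, were within background on all 8 arrays, with no signal over 23.2. The receptors, phosphotransfer proteins, transporters, response factors and the enzymes of cytokinin synthesis are not analysed here, for want of a listed probe set.

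ARR16, the only other type-A regulator gene with a listed probe set, is like ARR15 a cytokinin-induced feedback regulator. Its signals were 49.1 and 45.6 in Col-0, 60.9 and 63.2 in ago1-27, 52.5 and 60.2 in se-1, with 54.2 and 54.7 in se-1 p35S::MIR156. In ago1-27, where the mean of ARR15 was lowest, that of ARR16 was highest, but ago1-27 replicate 1 was close to se-1 replicate 2. The ago1-27 minus Col-0 log2 difference of ARR16 was 0.30 (SE 0.23) and was not called (limma, Benjamini-Hochberg adjusted p = 0.638), beside -1.40 for ARR15. Its differences in the other 5 comparisons lay between -0.15 and 0.19, with adjusted p from 0.760 to 0.986. The difference between the responses of these genes was not tested.

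UGT76C1 and UGT76C2 encode glucosyltransferases that inactivate cytokinins by N-glucosylation. UGT76C2 gave 181 and 173 in Col-0, 187 and 146 in ago1-27, 166 and 179 in se-1, with 230.5 and 180.3 in se-1 p35S::MIR156. All genotypes overlapped on this probe set except that both transgenic arrays were above both se-1 arrays, narrowly, at 180.3 against 178.7 for the nearest. The share of all tested probe sets so separated was not counted. UGT76C1 gave 43.9 and 58.8 in Col-0, 37.2 and 59.4 in ago1-27, 31.8 and 42.0 in se-1, with 32.8 and 48.7 in se-1 p35S::MIR156. Its genotypes overlapped except that both se-1 arrays were below both Col-0 arrays, as in 19.9% of all tested probe sets. In ago1-27 against Col-0 the log2 differences were -0.09 (SE 0.20) for UGT76C2 and -0.08 (SE 0.28) for UGT76C1.

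By limma, 0 of these 3 genes passed an adjusted p of 0.05 in any of the 6 comparisons, the lowest adjusted p was 0.453, and 0 had an unadjusted p under 0.05. The share of all tested probe sets called was 1.66% for ago1-27 against Col-0, 1.09% for se-1 against Col-0 and 0.842% for se-1 p35S::MIR156 against Col-0. It was 0.358% for se-1 p35S::MIR156 against se-1, 3.37% for se-1 against ago1-27 and 6.93% for se-1 p35S::MIR156 against ago1-27. At these shares, 0 calls among 3 genes is near the background. The median log2 difference of the 3 genes in ago1-27 against Col-0 was -0.08, beside 0.02 over all tested probe sets.

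**Figure D2:**
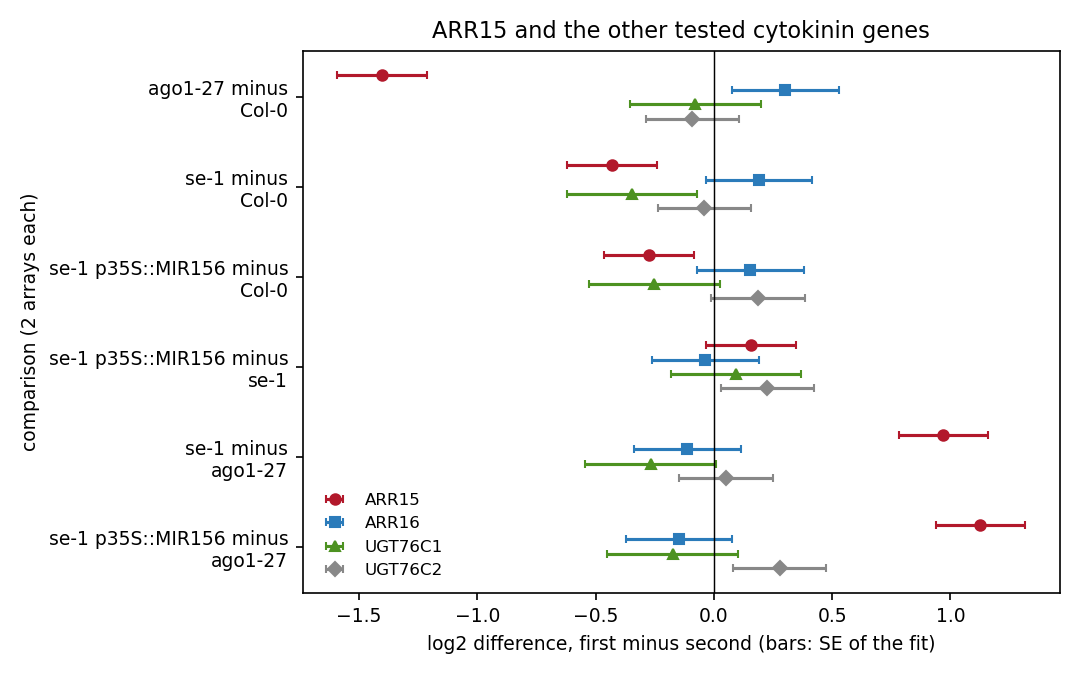
Log2 differences (horizontal axis, first genotype minus second, bars are the SE of the fit) of ARR15 and the 3 other tested cytokinin genes in the 6 comparisons of 2 arrays against 2. ARR15 stands at -1.40, 0.97 and 1.13 in the 3 comparisons that involve ago1-27, while the other genes lie between -0.35 and 0.30 throughout.

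Auxin-linked genes were listed because auxin signalling is known to act on ARR15. Of 23, 5 had a listed probe set and 2 were tested, both GH3 genes, whose enzymes join auxin to amino acids and which are induced by auxin. GH3.3 gave 255 and 262 in Col-0, 401 and 548 in ago1-27, 374 and 482 in se-1, with 406 and 319 in se-1 p35S::MIR156. Its mean was lowest in Col-0, where that of ARR15 was highest. The log2 difference of 0.82 in ago1-27 (SE 0.20) was not called (limma adjusted p = 0.057), nor was that of 0.68 in se-1 (adjusted p = 0.147). Leaving out 1 array, the GH3.3 difference in ago1-27 ran from 0.60 without ago1-27 replicate 2 to 1.04 without ago1-27 replicate 1.

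GH3.5, named WES1 in the reference, gave 268 and 344 in Col-0, 214 and 236 in ago1-27, 246 and 268 in se-1, with 396 and 392 in se-1 p35S::MIR156. As with ARR15, its 2 lowest signals were those of ago1-27, which held for 7.69% of all tested probe sets. It was called higher in se-1 p35S::MIR156 than in ago1-27, by 0.77 on the log2 scale (SE 0.18, limma adjusted p = 0.019), the 1 call among the 2 auxin genes in 6 comparisons. That call was lost without ago1-27 replicate 1 or either transgenic array (adjusted p from 0.070 to 0.123).

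Markers of other tissues were also read, and of those tested only PYK10 was called in any comparison. Of 9 root genes, 2 had a listed probe set. PYK10 encodes a beta-glucosidase stored in endoplasmic reticulum bodies and is abundant in roots and seedlings. It gave 1648 and 1678 in Col-0, 211 and 123 in ago1-27, 639 and 933 in se-1, with 2337 and 1545 in se-1 p35S::MIR156. EXPA7, an expansin gene of root hairs, was within background on all 8 arrays, with no signal over 9.84. The summed signal of these 2 probe sets, almost all of it from PYK10, was 1650 to 1682 in Col-0 and 128 to 214 in ago1-27. It was 642 to 943 in se-1 and 1546 to 2338 in se-1 p35S::MIR156.

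PYK10 was called lower in ago1-27 than in Col-0 by limma, with a log2 difference of -3.24 and adjusted p = 3.96e-06. Its fall in se-1 was a log2 difference of -1.09 with adjusted p = 0.046, near the threshold. It was not called under several other processing settings, listed at the end (adjusted p from 0.051 to 0.187). Nor was it called without se-1 replicate 1 or without either Col-0 array, with log2 differences from -1.10 to -0.82. PYK10 was also called higher than in ago1-27 in se-1, with a log2 difference of 2.15 (adjusted p = 0.000144), and in se-1 p35S::MIR156, with one of 3.43 (adjusted p = 6.41e-07). It was called higher in se-1 p35S::MIR156 than in se-1, by 1.28 (adjusted p = 0.036). That call was lost under some other processing settings (adjusted p from 0.061 to 0.235) and without se-1 replicate 1 or either transgenic array. The log2 differences without these arrays ran from 0.985 to 1.58. PYK10 and ARR15 were both lower in ago1-27 and in se-1 than in Col-0. The part of tissue make-up in the ARR15 difference was not tested.

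Of 9 photosynthesis genes of leaves, 3 had a listed probe set. Their summed signal, most of it from LHCB4.1 and RCA, was 8156 to 10150 in ago1-27 and 6353 to 7764 on the other 6 arrays. The share of all tested probe sets with both ago1-27 arrays above the rest was not counted. None of the 3 (RCA, PRK and LHCB4.1) was called by limma in any comparison, and those with an unadjusted p under 0.05 numbered 2 in ago1-27 against Col-0, 3 in se-1 against ago1-27, 1 in se-1 p35S::MIR156 against ago1-27 and 0 in the other 3 comparisons. The RCA log2 difference in ago1-27 against Col-0 was 0.63. It was 0.90 without ago1-27 replicate 1 and 0.36 without ago1-27 replicate 2. Of 10 leaf primordium genes, 3 had a listed probe set (YAB3, YAB5 and PHV). Their sum was 774 to 784 in Col-0, 806 to 977 in ago1-27, 1079 to 1108 in se-1 and 786 to 1002 in se-1 p35S::MIR156, with 0 called in any comparison. An unadjusted p under 0.05 was found for 1 in ago1-27 against Col-0 and for 1 in se-1 p35S::MIR156 against se-1. It was found for 0 in se-1 p35S::MIR156 against Col-0 and for 2 in each of the other 3 comparisons. For both lists, the share of all tested probe sets under this unadjusted threshold was not counted. These numbers can therefore not be set against a background. The YAB3 log2 difference in se-1 p35S::MIR156 against ago1-27 was -0.54, and -0.79 without ago1-27 replicate 1. The floral and the cell division lists, of 8 genes each, had no listed probe set, so the dividing share of the apices was not analysed here.

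The genes whose signals followed ARR15 most closely were found by Pearson correlation of log2(signal + 16) over the 8 arrays. The 441 candidates were tested probe sets paired with a single gene whose genotype means spanned at least 1 on the log2 scale, a span that was 1.40 for ARR15. The arrays of a genotype are not independent conditions, and with 441 candidates high values are found readily: 17 had r of at least 0.9 and 13 had r of -0.9 or below. The values below describe likeness on these arrays and carry no test. The lists depend in part on the pseudocount: with 1 in place of 16, 5 of the 6 like and all 6 opposite genes were shared, and with 64, all 6 like and 4 of the 6 opposite genes.

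The 6 most like ARR15 were AT5G59330 (r = 0.97), AT1G67865 (0.97), AT2G37130 (0.96), PYK10 (0.96), AT1G62510 (0.95) and AT4G36470 (0.94). In all 6, both ago1-27 arrays were below the other 6 arrays. The genes were picked for their likeness to ARR15, which is lowest in ago1-27, so this separation largely follows from the choice. AT1G67865 gave 1369 and 1385 in Col-0, 521 and 461 in ago1-27, 1024 and 1066 in se-1, with 1365 and 1299 in se-1 p35S::MIR156. Its log2 difference in ago1-27 against Col-0 was -1.46, beside -1.40 for ARR15, and in se-1 it was -0.39, beside -0.43. In se-1 p35S::MIR156 against Col-0 it was -0.048, beside -0.27 for ARR15. For AT2G37130 these 3 differences were -1.28, -0.48 and -0.25.

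AT5G59330 spanned far more than ARR15, from 482 and 430 in Col-0 to 3.82 and 4.99 in ago1-27, both within background. Its se-1 arrays gave 190 and 228, and its transgenic arrays 457 and 282. AT2G37130 had 140 and 96.6 in Col-0 against 36.2 and 40.9 in ago1-27. AT1G62510 and AT4G36470 were dim: AT1G62510 was within background on 4 of the 8 arrays, and AT4G36470 on 1. PYK10 had its highest mean in the transgenic line, where ARR15 was below Col-0: its transgenic arrays averaged 1941 ± 560 against 1663 ± 20.8 in Col-0 (SD, n = 2).

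The 6 most opposite to ARR15 were PIFI (r = -0.97), AT3G10720 (-0.96), AT1G33811 (-0.96), AT5G62210 (-0.94), AT3G62550 (-0.94) and GSTU16 (-0.94). In all 6, both ago1-27 arrays were above the other 6, which again largely follows from how the genes were picked. PIFI, named for the post-illumination rise of chlorophyll fluorescence, gave 225 and 199 in Col-0, 463 and 569 in ago1-27, 299 and 261 in se-1, with 208 and 253 in se-1 p35S::MIR156. Its ago1-27 minus Col-0 log2 difference was 1.22, and its se-1 minus Col-0 difference 0.38.

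GSTU16, which encodes a glutathione S-transferase of the tau class, gave 34.0 and 35.9 in Col-0 and 70.8 and 103 in ago1-27. Its signals in se-1, 42.7 and 30.2, and in the transgenic line, 31.0 and 30.1, were close to those of Col-0. AT5G62210 gave 91.5 and 160 in Col-0, 382 and 546 in ago1-27, 302 and 184 in se-1, with 106 and 165 in se-1 p35S::MIR156, so that its se-1 arrays lay between those of Col-0 and ago1-27.

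**Figure D3:**
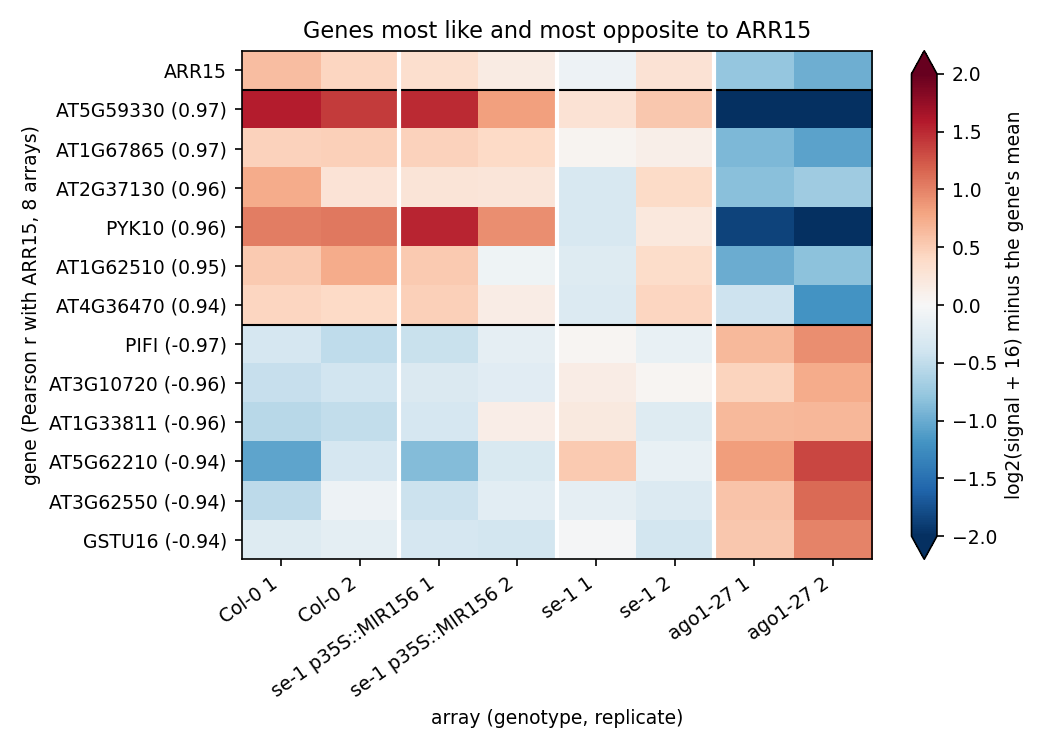
Log2(signal + 16) minus each gene's mean (colour) on the 8 arrays (columns) for ARR15, the 6 genes most like it and the 6 most opposite (rows, with Pearson r over the 8 arrays). The ago1-27 columns are lowest for ARR15 and the like genes and highest for the opposite genes, and colours beyond 2 in either direction are capped.

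The genes next to ARR15 on the chromosome were compared in the same way. Neighbours were taken as the nearest 3 genes on each side with a probe set of their own, in the gene order of the TAIR10.1 reference. OTP43, which encodes a protein of mitochondrial transcript processing and directly follows ARR15, gave 41.8 and 54.3 in Col-0, 42.0 and 54.2 in ago1-27, 41.2 and 38.8 in se-1, with 49.8 and 54.3 in se-1 p35S::MIR156. Its Col-0 and ago1-27 signals overlapped fully, with a log2 difference of 0.00 (SE 0.24). The aldehyde dehydrogenase gene ALDH10A8 and AT1G74910, on the same side, had differences of -0.01 and 0.05 in ago1-27.

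On the other side, AT1G74870 was too dim to be tested and AT1G74860 had a log2 difference of 0.15 (SE 0.23) in ago1-27. AT1G74840 was the one neighbour with both ago1-27 arrays lowest, as in 7.69% of all tested probe sets. It gave 641 and 584 in Col-0, 531 and 384 in ago1-27, 576 and 756 in se-1, with 719 and 702 in se-1 p35S::MIR156. Its ago1-27 minus Col-0 difference was -0.43 (SE 0.19). By limma 0 of the 5 tested neighbours were called in the 6 comparisons, with a lowest adjusted p of 0.061. An unadjusted p under 0.05 was found for 4 values, and the share of all tested probe sets under it was not counted. The AT1G74840 log2 difference in se-1 p35S::MIR156 against ago1-27 was 0.63, and 0.86 without ago1-27 replicate 1.

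**Figure D4:**
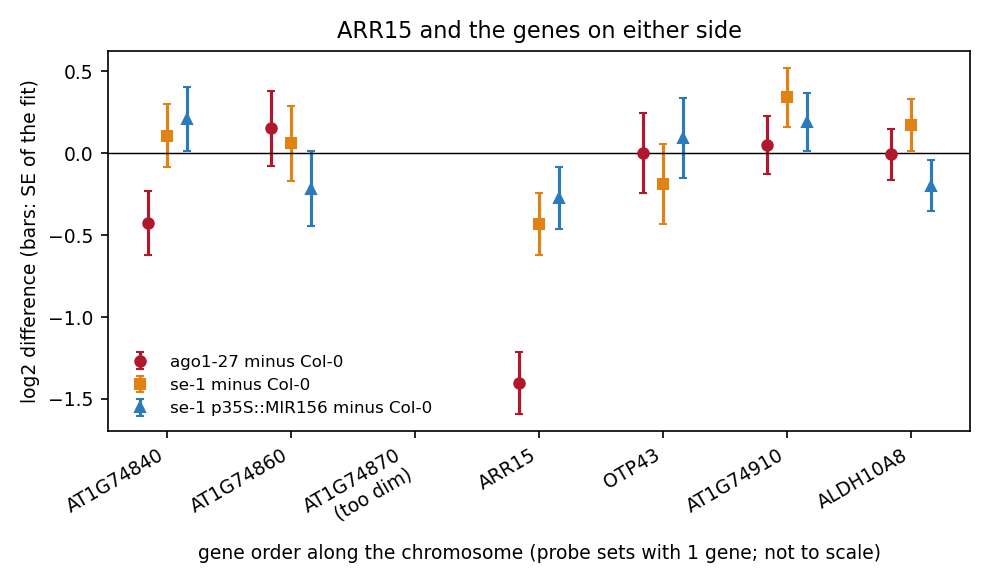
Log2 difference from Col-0 (vertical axis, bars are the SE of the fit) in ago1-27, se-1 and se-1 p35S::MIR156 for ARR15 and the genes on either side, in chromosome order and not to scale. ARR15 in ago1-27 stands at -1.40, and the 5 tested neighbours lie between -0.43 and 0.34.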

How the data were processed

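The deposited values are probe set signals on a linear intensity scale, 1 column per array. The submitters' processing notes name GCOS, and its version and signal algorithm are not given in the sources used here. The 2% trimmed mean over 22810 probe sets was 200.02 on each array, so the authors had scaled the arrays. No detection calls were used. The 64 control probe sets and the lowest 30% by mean log2(signal + 16) were dropped, which left 15922 of 22746 for testing. All 8 arrays entered a linear model with a mean for each genotype in limma 3.58.1 (R 4.3.3; lmFit, eBayes with a trend; 4 residual and 11.27 prior degrees of freedom). Log2 differences and SEs are from this fit, so they are slightly smaller than ratios of signals. Called means a two-sided p that is below 0.05 after Benjamini-Hochberg adjustment over all tested probe sets of a comparison. An exact permutation test of 2 arrays against 2 cannot give a p below 0.333.

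The annotation table pairs 13513 probe sets with 1 gene and 503 with several, and 13436 of the former matched the TAIR10.1 gene table. Symbols were updated through it. ARR16, ARR18, ARR19 and ARR22 appear there as RR genes. Other probe sets are unnamed here. Named were ARR15, the tested cytokinin genes, called members of the 7 other lists, the nearest 3 genes on each side, and the 6 genes most like and most opposite to ARR15. Other genes named were chosen after their values were seen. The gene, the lists and the tests were chosen with earlier results of these data known. The procedure was tested on simulated data. Alternatives were other pseudocounts, filters, normalization and moderation, a replicate block, fewer genotypes, and leaving out each array.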

Additional observations from a re-analysis of the deposited data

How the results depend on the processing

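The ARR15 differences moved by less than its residual SD of 0.18 with pseudocounts of 1 and 64, quantile normalization and a replicate block, in all 24 values: from -1.47 to -1.23 for ago1-27 minus Col-0, and from -0.45 to -0.39 for se-1 minus Col-0. The replicate block could not move these differences, since each genotype has 1 array of each replicate number. Leaving out 1 array at a time, they ranged from -1.51 to -1.30 for ago1-27 minus Col-0, -0.63 to -0.23 for se-1 minus Col-0, and -0.37 to -0.18 for se-1 p35S::MIR156 minus Col-0. They ranged from -0.042 to 0.35 for se-1 p35S::MIR156 minus se-1, 0.77 to 1.17 for se-1 minus ago1-27, and 1.02 to 1.23 for se-1 p35S::MIR156 minus ago1-27. The count of called cytokinin genes was 0 in all 78 values, 1 for each alternative setting of a comparison. With the lowest 50% of probe sets left out, ARR16 and UGT76C1 were too dim to be tested.

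With no filter on dim probe sets, the counts of probe sets called in the table went from 265 to 98 (ago1-27 against Col-0), 173 to 68 (se-1 against Col-0), 134 to 28 (se-1 p35S::MIR156 against Col-0), 57 to 15 (against se-1), 537 to 249 (se-1 against ago1-27) and 1103 to 588 (se-1 p35S::MIR156 against ago1-27). More probe sets, most of them dim, are tested there. Without a trend they were 75 for se-1 p35S::MIR156 against Col-0 and 25 against se-1. With only the compared genotypes they were 281 for se-1 p35S::MIR156 against Col-0 and 274 for se-1 against ago1-27. Leaving out 1 array they ranged, in the order above, from 80 to 338, 32 to 89, 14 to 42, 10 to 41, 261 to 535 and 417 to 1055. The cause was not tested.

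The labels do not say whether the replicate numbers pair the arrays. Deviations of same-numbered arrays from their genotype means correlated across probe sets only between -0.206 and 0.112. With the replicate block the count for ago1-27 against Col-0 was 271, for se-1 against Col-0 187, and no call of a named gene changed. The ARR15 differences were the same, as they must be when every genotype has 1 array of each replicate number. Among named genes other than ARR15, 8 values under settings other than leaving out 1 array lost a call, all of PYK10. Most of the 894 values under those settings had no call to lose. For se-1 against Col-0 the call was lost with pseudocount 1, quantile normalization, no filter, no trend or robust eBayes. For se-1 p35S::MIR156 against se-1 it was lost with pseudocount 1, no filter or no trend. With 2 arrays a genotype, differences near the replicate gap of ARR15 cannot be resolved.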
